A study of Nicotiana benthamiana with 12 samples.

Results

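Genes annotated GASA/GAST/Snakin encode small secreted peptides rich in cysteine. They were taken from the deposited gene table by that annotation text, which 3 of 40763 genes carry. Of these, 2 were singled out because their transcripts fell steeply with heat in both RNA fractions: Niben101Scf04495g00028.1 and Niben101Scf01578g00012.1. The third, Niben101Scf02854g11002.1, has the same text and was not among them. All 3 had enough counts to be tested, as did 34325 genes of the table. The heat effect chose the first pair, so it is described here with no p-value for any of the 3, and tests are given only for comparisons that the choice did not use.

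GASA peptides carry a signal for secretion and a conserved cysteine-rich domain at their end. The founding gene of tomato, GAST1, was found by its induction by gibberellin, and the snakins of potato act against microbes. In Arabidopsis and other plants, members have been linked to cell elongation, leaf growth, flowering and responses to stress. Gibberellin itself is made by gibberellin 20-oxidases and 3-oxidases and is inactivated by 2-oxidases. It binds the receptor GID1, which then leads DELLA proteins, repressors of growth, to degradation through an F-box protein such as GID2.

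The measurements are RNA sequencing of leaves of Nicotiana benthamiana, a relative of tobacco that serves as a laboratory plant, grown in soil for 5 weeks. Heat plants were held at 37 °C for 1 h and mock plants stayed at 23 °C. From each treatment came polysome RNA, the transcripts recovered with ribosomes, and total RNA. The 4 groups (heat polysome, mock polysome, heat total and mock total) have 3 libraries each, which the submitters call biological replicates. All plants grew in long days, the labels name no mutation or transgene, and the number of plants behind a library was not stated. Libraries carry the numbers of their titles, 5 to 7 in heat polysome and mock total RNA and 2 to 4 in mock polysome and heat total RNA. Heat and mock libraries of a fraction therefore share no number.

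Libraries held 11766622 to 14485118 counts in heat polysome RNA, 10945519 to 14474404 in mock polysome RNA, 12601286 to 14313000 in heat total RNA and 10724854 to 11984551 in mock total RNA. Levels are in CPM, which are counts corrected for the size of each library and scaled by TMM factors. These factors bring typical genes to about the same level across libraries. They were 0.562 to 0.963 in polysome and 1.22 to 1.46 in total libraries. A ratio of polysome to total RNA is therefore relative to typical genes and is not a share of RNA. Gene length was not available, so levels of different genes are not compared as amounts. Where a gene is called the most abundant, it had the highest mean CPM over all libraries, heat and mock together. Small heat shock proteins, chaperones that heat induces, rose in 42 of 63 tested genes in polysome RNA (median log2 change 6.05) and in 41 of 63 in total RNA (median 5.96). Leaf mesophyll markers (chlorophyll a-b binding proteins and the Rubisco small chain) numbered 89, of which 85 were tested. The summed level of the 89 was 117365 CPM or more in every library. Of them, 1 was at the lowest count of the table in all mock polysome libraries and none was so in another group. Mock total libraries 6 and 7 stood apart by copies of the plastid gene for the Rubisco large chain, which summed to 3215 and 4312 CPM there and to 41.8 to 773 CPM in the other 10 libraries. Some results that rest on mock total RNA are therefore also given without both, and for the others no such value is shown. In that fit mock total library 5 stands alone and its spread is taken from the other groups.

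Niben101Scf04495g00028.1 was strongly reduced in heated leaves. In polysome RNA it had 3.44, 5.17 and 3.61 CPM in heat libraries 5, 6 and 7, against 217, 45 and 76.6 CPM in mock libraries 2, 3 and 4. Every heat library lay below every mock library, and mock library 2 stood far above the other two. In total RNA the gene had 1.32, 0.887 and 0.792 CPM in heat libraries 2, 3 and 4, against 42.1, 45.4 and 143 CPM in mock libraries 5, 6 and 7. Again the groups did not overlap, and mock library 7 stood above its group. The log2 change was -4.78 ± 0.60 (SE) in polysome RNA, a 27.4-fold lower level in heat, and -6.25 ± 0.66 in total RNA, a 75.9-fold lower level. Counting from the steepest fall of all genes tested, these were the 63rd and the 7th. In the authors' deposited table, the log2 ratios of heat to mock for this gene were -4.75 in polysome RNA and -6.12 in total RNA.

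The size of that fall depended on single mock libraries. Without mock polysome library 2 the change in polysome RNA was -3.87, and without mock total library 7 the change in total RNA was -5.42. Leaving out mock total libraries 6 and 7 gave -5.34 ± 0.59. In each of these fits the gene stayed far below its mock level.

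Niben101Scf01578g00012.1 was close to its detection limit after heat. Polysome RNA held 0.738, 0.211 and 0.373 CPM in heat libraries 5, 6 and 7, against 40.4, 19.2 and 25.3 CPM in mock libraries 2, 3 and 4. Total RNA held 0.172, 0.380 and 0.183 CPM in heat libraries 2, 3 and 4, against 12.6, 10.8 and 23.9 CPM in mock libraries 5, 6 and 7. The heat and mock groups did not overlap in either fraction, and the highest mock values were again those of polysome library 2 and total library 7. Behind the heat values were only 6, 2 and 3 counts in polysome RNA and 3, 6 and 3 in total RNA, in a table whose lowest count is 1, so counting error is wide there. The log2 change was -6.01 ± 0.48 in polysome RNA (64.3-fold lower) and -5.97 ± 0.47 in total RNA (62.7-fold lower), the 8th and the 11th steepest fall. It was -6.45 and -6.36 after 1 was subtracted from every count, and -5.62 ± 0.46 in total RNA without mock total libraries 6 and 7.

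**Figure D1:**
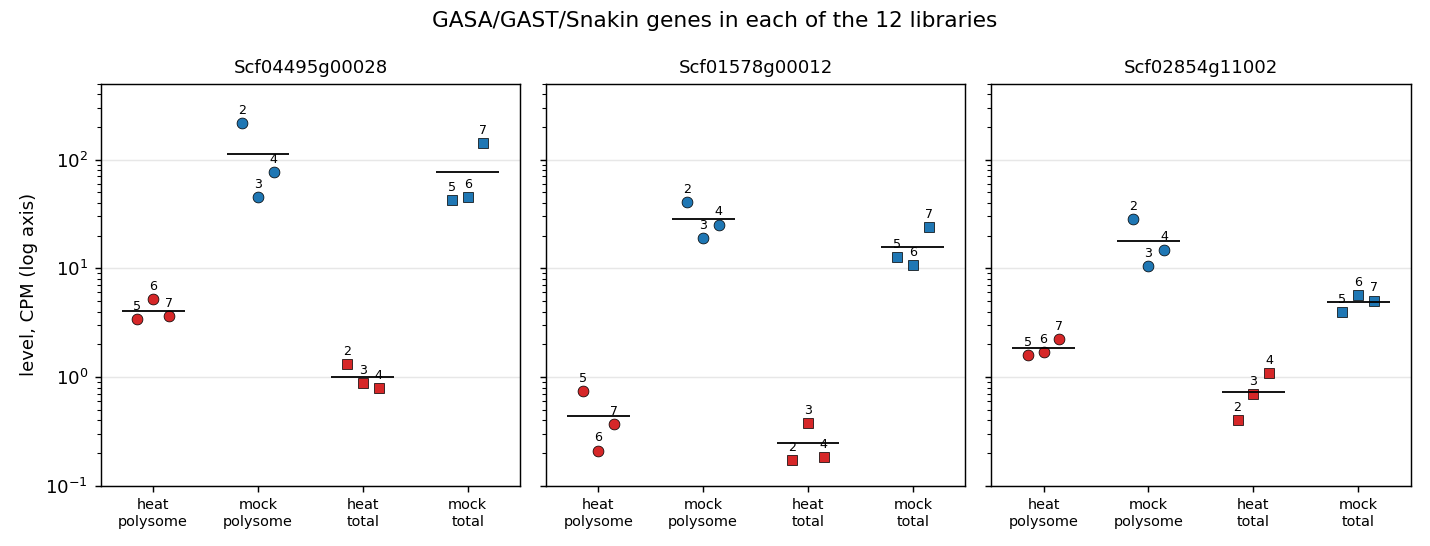
Level (CPM, log axis) of the 3 GASA/GAST/Snakin genes in each library, heat in red and mock in blue, circles for polysome and squares for total RNA, with the library number beside each point and a bar at the mean of 3 libraries. Heat points lie below mock points of the same fraction in all 3 genes, and Niben101Scf04495g00028.1 reached 217 CPM in mock polysome library 2 and 143 CPM in mock total library 7.

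Niben101Scf02854g11002.1 moved the same way but less far. It had 1.60, 1.69 and 2.24 CPM in heat polysome libraries, against 28.2, 10.6 and 14.9 CPM in mock polysome libraries. In total RNA it had 0.400, 0.697 and 1.10 CPM in heat libraries, against 3.93, 5.69 and 5.06 CPM in mock libraries. No heat value reached a mock value of its fraction. The log2 change was -3.27 ± 0.37 in polysome RNA (9.67-fold lower) and -2.74 ± 0.40 in total RNA (6.67-fold lower), at places 472 and 1117 of all genes tested. Without mock polysome library 2 the change in polysome RNA was -2.77, and without mock total libraries 6 and 7 the change in total RNA was -2.39 ± 0.53.

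For orientation, 28.6% of all genes tested had every heat library below every mock library in polysome RNA, as all 3 genes did, and 34.3% did so in total RNA. The median log2 change of all genes tested was -0.06 in polysome RNA and -0.08 in total RNA. In bulk leaf RNA, fewer cells of a type that makes the transcript and less transcript per cell cannot be told apart.

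By mean CPM after TMM scaling, the 4 groups fell in the same order in all 3 genes: mock polysome highest, then mock total, heat polysome and heat total. In Niben101Scf02854g11002.1 no neighbours in this order overlapped. In Niben101Scf04495g00028.1 the mock polysome and mock total libraries overlapped, with means of 113 ± 91.5 and 76.9 ± 57.4 CPM (SD, n = 3 each). In Niben101Scf01578g00012.1 the polysome and total libraries overlapped in heat (0.441 ± 0.270 and 0.245 ± 0.117 CPM) and in mock (28.3 ± 10.9 and 15.8 ± 7.09 CPM).

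Polysome RNA was next compared with total RNA within each treatment. This asks how the level of a transcript on ribosomes differs from its level in total RNA, relative to typical genes. In heat, Niben101Scf04495g00028.1 was higher in polysome than in total RNA by a log2 of 2.02 ± 0.73 (4.06-fold, adjusted p = 0.026, edgeR's quasi-likelihood test). All 3 heat polysome values, 3.44 CPM or more, exceeded all heat total values, 1.32 CPM or less. The call depended on single libraries, since the adjusted p was 0.088, 0.062 and 0.068 without heat polysome library 6, heat total library 3 or heat total library 4, and 0.12 with limma-voom. It held with DESeq2 (adjusted p = 0.0085) and in a fit of the compared libraries alone (log2 1.95 ± 0.3, adjusted p = 3.3e-05). In mock, the same ratio was 0.55 ± 0.48 with a 95% interval of -0.38 to 1.49 (adjusted p = 0.34). It was -0.34 without mock polysome library 2 and 1.36 (adjusted p = 0.016) without mock total library 7. These data therefore do not settle whether, relative to typical genes, the transcript was higher or lower in polysome than in total RNA of unheated leaves.

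Niben101Scf01578g00012.1 was 1.79-fold higher in polysome than in total RNA of mock leaves (log2 0.84 ± 0.30, adjusted p = 0.024). The call was lost without mock polysome library 2 (0.50, adjusted p = 0.14), mock total library 5 (0.71, adjusted p = 0.081) or mock total library 6 (0.63, adjusted p = 0.12), and in a fit of the compared libraries alone (adjusted p = 0.072). In heat the ratio was 0.81 ± 0.85, with a 95% interval of -0.85 to 2.47 (adjusted p = 0.43), and a difference was not detectable at the handful of counts left.

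Niben101Scf02854g11002.1 was the most clearly polysome-enriched in mock leaves, by a log2 of 1.86 ± 0.31 (3.64-fold, adjusted p = 0.00013), a call that held in each of the 12 fits with 1 library left out. In heat it was 2.51-fold higher in polysome RNA (log2 1.33 ± 0.48, adjusted p = 0.025), and all 3 polysome values exceeded all total values. That second call was lost without heat polysome library 7 (1.16, adjusted p = 0.095), heat total library 2 (1.01, adjusted p = 0.10) or heat total library 3 (1.28, adjusted p = 0.060), and with limma-voom (1.42, adjusted p = 0.067). Thus 2 of the 3 genes were called higher in polysome RNA in heat, where 30.8% of all genes tested were, and 2 of 3 in mock, where 27% were. Polysome libraries lay above all total libraries for 2 of the 3 in heat and for 1 in mock, as they did for 35.7% and 27.1% of all genes tested.

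Whether heat changed the ratio of polysome to total RNA was tested as the difference of both heat effects, and none of the 3 genes passed with edgeR. None passed at an unadjusted p under 0.05 or with DESeq2 either. The difference was 1.47 ± 0.89 for Niben101Scf04495g00028.1 (95% interval -0.28 to 3.22, adjusted p = 0.27), -0.04 ± 0.67 for Niben101Scf01578g00012.1 (-1.35 to 1.28, adjusted p = 1.0) and -0.54 ± 0.55 for Niben101Scf02854g11002.1 (-1.61 to 0.54, adjusted p = 0.58). Of all genes tested, 10.2% were called higher and 8.42% lower in this comparison. For Niben101Scf04495g00028.1 the value turned on 1 library, being 2.32 (adjusted p = 0.026) without mock polysome library 2, while it was 0.59 ± 0.76 (adjusted p = 0.72) without mock total libraries 6 and 7. For Niben101Scf01578g00012.1 it ran from -0.62 to 0.38 over the 12 fits with 1 library left out.

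The GASA domain family is larger in this annotation. A further 14 genes carry the text "Gibberellin-regulated protein" with the number of their closest Arabidopsis GASA protein, and 7 of them had enough counts to be tested. None had entered the choice of genes, so their heat effects are given with tests. Of these 7, 3 fell and 0 rose in polysome RNA (median log2 change -0.18), and 3 fell and 0 rose in total RNA (median -0.49). No rise reached even an unadjusted p under 0.05, and none was called with DESeq2. Over all genes tested, 28% fell and 28.1% rose in polysome RNA, and 28.3% fell and 25.7% rose in total RNA. The genes that fell were the same 3 in both fractions, with log2 changes of -2.06 to -0.49, where the 3 GASA/GAST/Snakin genes had -6.25 to -2.74. Without mock total libraries 6 and 7, none of the 7 passed in total RNA (3 fell at an unadjusted p under 0.05) and 4 fell in polysome RNA. In total RNA 5 fell without mock polysome library 3 or mock total library 6.

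Both genes numbered 9 fell. Niben101Scf03628g01020.1 had 23.5, 21.4 and 23.0 CPM in heat polysome libraries, against 169, 42.8 and 40.6 CPM in mock polysome libraries, a log2 change of -1.90 ± 0.44 (adjusted p = 0.0016). Its total RNA held 4.92, 4.69 and 4.45 CPM in heat, against 11.4, 19.1 and 28.2 CPM in mock (-2.06 ± 0.46, adjusted p = 0.0015). Groups did not overlap in either fraction, the heat libraries were close together, and the mock libraries spread widely. Niben101Scf09092g02011.1 fell by 1.18 ± 0.24 on the log2 scale in polysome RNA (18.2 to 20.8 CPM in heat, 31.4 to 65.7 CPM in mock, adjusted p = 0.00064). In total RNA it fell by 1.27 ± 0.26 (4.0 to 5.2 CPM in heat, 8.12 to 12.8 CPM in mock, adjusted p = 0.00068).

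The gene numbered 7, Niben101Scf02427g02013.1, fell more in polysome than in total RNA. It had 72.2, 66.6 and 74.1 CPM in heat polysome libraries, against 180, 128 and 229 CPM in mock polysome libraries (-1.33 ± 0.18, adjusted p = 1.3e-05). Total RNA held 20.5, 19.7 and 17.8 CPM in heat, against 30.3, 24.2 and 27.2 CPM in mock (-0.49 ± 0.18, adjusted p = 0.032). The difference of both effects was -0.84 ± 0.26 (adjusted p = 0.032), the only one among the 10 tested genes of the family to pass. The call in total RNA was lost in 7 of the 12 fits with 1 library left out and the difference in 8 of 12, and neither passed without mock total libraries 6 and 7.

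The other 4 tested genes did not pass in either fraction. Niben101Scf00146g00008.1 (numbered 14) had a log2 change of 0.48 ± 0.37 in polysome RNA and of -0.20 ± 0.40 in total RNA. Without mock polysome library 2, which held 34.2 CPM against 8.32 and 17.5 CPM in the other mock libraries, its change in polysome RNA was 1.14 (adjusted p = 0.0065). Niben101Scf01799g00001.1 (numbered 6) had -0.18 ± 0.29 and 0.28 ± 0.34, and Niben101Scf01563g00013.1 (numbered 10) -0.16 ± 0.30 and 0.02 ± 0.32, in polysome and total RNA. Niben101Scf02253g14010.1 (numbered 14), with at most 1.37 CPM in a library, had -0.11 ± 0.78 and -1.36 ± 0.82.

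**Figure D2:**
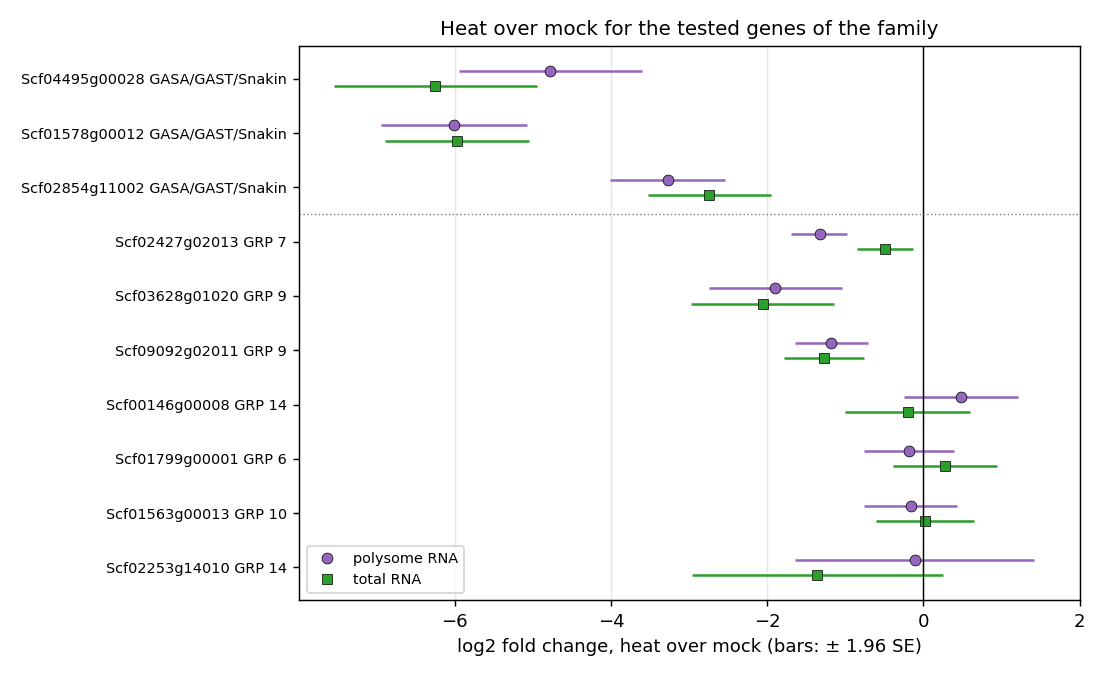
Log2 fold change of heat over mock for the 10 tested genes of the family, in polysome RNA (circles) and total RNA (squares), with bars for the 95% interval; GRP stands for Gibberellin-regulated protein with its number, and the dotted line separates the 3 GASA/GAST/Snakin genes, of which 2 were chosen by this effect, from the rest. The first 3 genes lie between -6.25 and -2.74, and the other 7 between -2.06 and 0.48.

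Enrichment in polysome RNA was a trait of the wider family too. Of the 7 genes, 6 were higher in polysome than in total RNA in heat (median log2 2.12 over the 7) and 6 in mock (median 2.03), where the medians of all genes tested were 0.07 and 0.00 and 30.8% and 27% of them were called higher. Niben101Scf02427g02013.1 had ratios of 1.87 ± 0.19 in heat (adjusted p = 5.6e-07) and 2.71 ± 0.19 in mock (adjusted p = 4.7e-08). Niben101Scf01799g00001.1 had 2.23 ± 0.32 in heat (adjusted p = 2.1e-05) and 2.68 ± 0.32 in mock (adjusted p = 5.5e-06). The exception was the sparsely counted Niben101Scf02253g14010.1, at 1.67 ± 0.88 in heat and 0.42 ± 0.73 in mock. Both counts of 6 were the same in each of the 12 fits with 1 library left out.

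**Figure D3:**
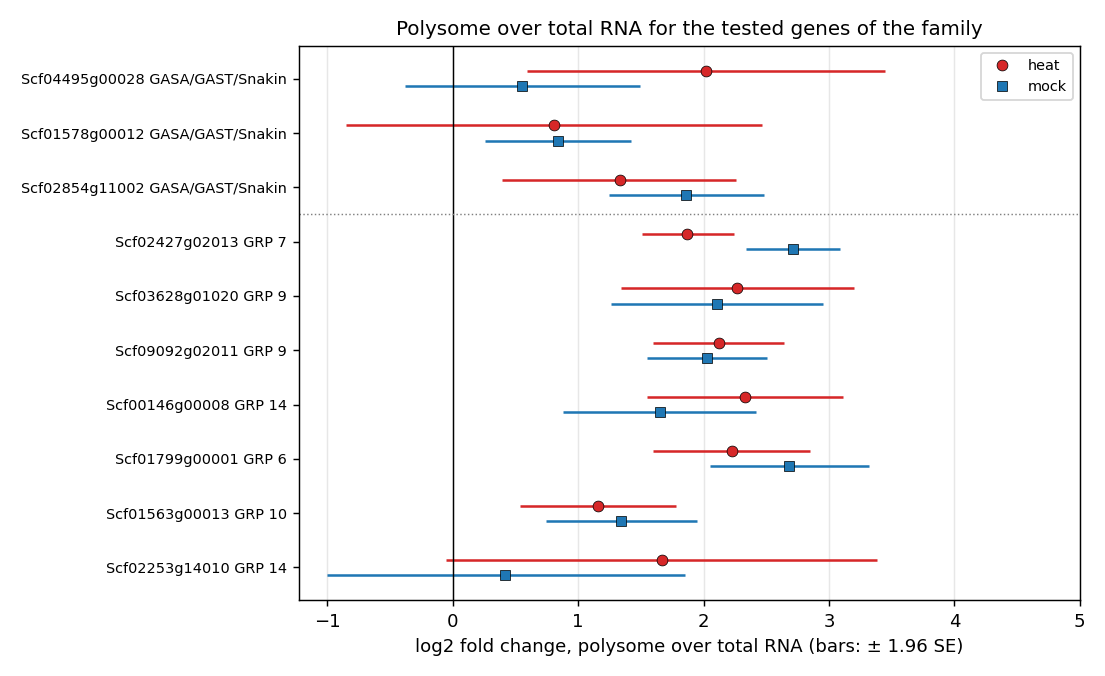
Log2 fold change of polysome over total RNA for the same 10 genes, in heat (circles) and mock (squares), with bars for the 95% interval; GRP stands for Gibberellin-regulated protein. All 20 estimates are above 0, from 0.42 to 2.71. Bars are widest for Niben101Scf02253g14010.1 (SE 0.88 in heat and 0.73 in mock), and those for Niben101Scf04495g00028.1 and Niben101Scf01578g00012.1 are also wide in heat.

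The 7 genes that were too low to test had at most 4.85 CPM in any library. That value belonged to Niben101Scf11251g00008.1, numbered 6, which had 51 counts in mock polysome library 2 and 39 in mock total library 7, and at most 7 in each of the other 10 libraries. The same libraries held the highest values of their groups for most of the family. Of the 10 tested genes, 8 were highest in library 2 among mock polysome libraries and 7 were highest in library 7 among mock total libraries. TCP and growth-regulating factor genes, which control leaf growth, also had their highest summed level there. They had 467 CPM in mock polysome library 2 against 332 and 375 CPM in the others of that group. In mock total library 7 they had 413 CPM against 345 and 364 CPM. The sums of expansins (600 CPM against 313 and 519 CPM, and 298 CPM against 251 and 260 CPM), brassinosteroid pathway genes and epidermis and cuticle genes also peaked in both. Those of the other lists outside the family did not, and cyclins had 352 CPM in mock polysome library 2 and 397 CPM in library 4. The part of all these genes in the result was not tested. One more gene, Niben101Scf05038g00001.1, carries the domain entry of the family but is annotated as a G-protein beta subunit, and it was left out of these counts.

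Across the 12 libraries, the 3 GASA/GAST/Snakin genes followed each other closely. Pearson's r of log2(CPM + 0.5) was 0.969 between Niben101Scf04495g00028.1 and Niben101Scf01578g00012.1, and 0.913 between each of them and Niben101Scf02854g11002.1. Of the Gibberellin-regulated protein genes, Niben101Scf03628g01020.1 was the most like Niben101Scf04495g00028.1 (r = 0.791), and Niben101Scf00146g00008.1 the least (r = 0.161). These values describe 12 libraries that share their depth and the heat effect by which the genes were chosen.

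The genes most like each listed gene were sought among 16147 genes with an informative annotation and a mean level above the median of 5.72 CPM. For Niben101Scf04495g00028.1 the first was Niben101Scf15366g00017.1, a glucose-6-phosphate/phosphate translocator that imports sugar phosphate into plastids (r = 0.993 over 12 libraries). It had 4.92, 3.80 and 3.36 CPM in heat polysome libraries, against 118, 28.1 and 41.1 CPM in mock polysome libraries, and 2.0, 2.03 and 1.28 CPM in heat total libraries, against 30.7, 40.9 and 90.0 CPM in mock total libraries. Like the GASA gene, it was highest in mock polysome library 2 and mock total library 7. The next 4 were a linker histone H1 (Niben101Scf03824g02001.1, r = 0.988), a long-chain alcohol oxidase of fatty acid metabolism (Niben101Scf11960g02012.1, r = 0.988), a gene annotated as transcription factor EB (Niben101Scf06525g00011.1, r = 0.986) and a putative transmembrane protein (Niben101Scf06616g00001.1, r = 0.986).

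For Niben101Scf01578g00012.1 the 5 were a serine acetyltransferase of cysteine synthesis (Niben101Scf06263g01004.1, r = 0.993), an inhibitor of cell wall and vacuolar invertase (Niben101Scf00618g05002.1, r = 0.993), the chlorophyll synthesis regulator GUN4 (Niben101Scf03113g03014.1, r = 0.992), a protein kinase (Niben101Scf05011g01027.1, r = 0.989) and a cytosolic sulfotransferase (Niben101Scf01143g02025.1, r = 0.989). The invertase inhibitor changed by -5.81 ± 0.61 in polysome RNA and by -6.43 ± 0.69 in total RNA, with 0.492, 0.211 and 0.249 CPM in heat polysome libraries, against 31.8, 10.2 and 12.4 CPM in mock polysome libraries. GUN4 had the same shape with a smaller range, at 14 ± 1.44 CPM in heat polysome RNA and 85.1 ± 8.5 CPM in mock polysome RNA (SD, n = 3). With Spearman's rank correlation, 1 of the 5 genes was kept for each listed gene.

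**Figure D4:**
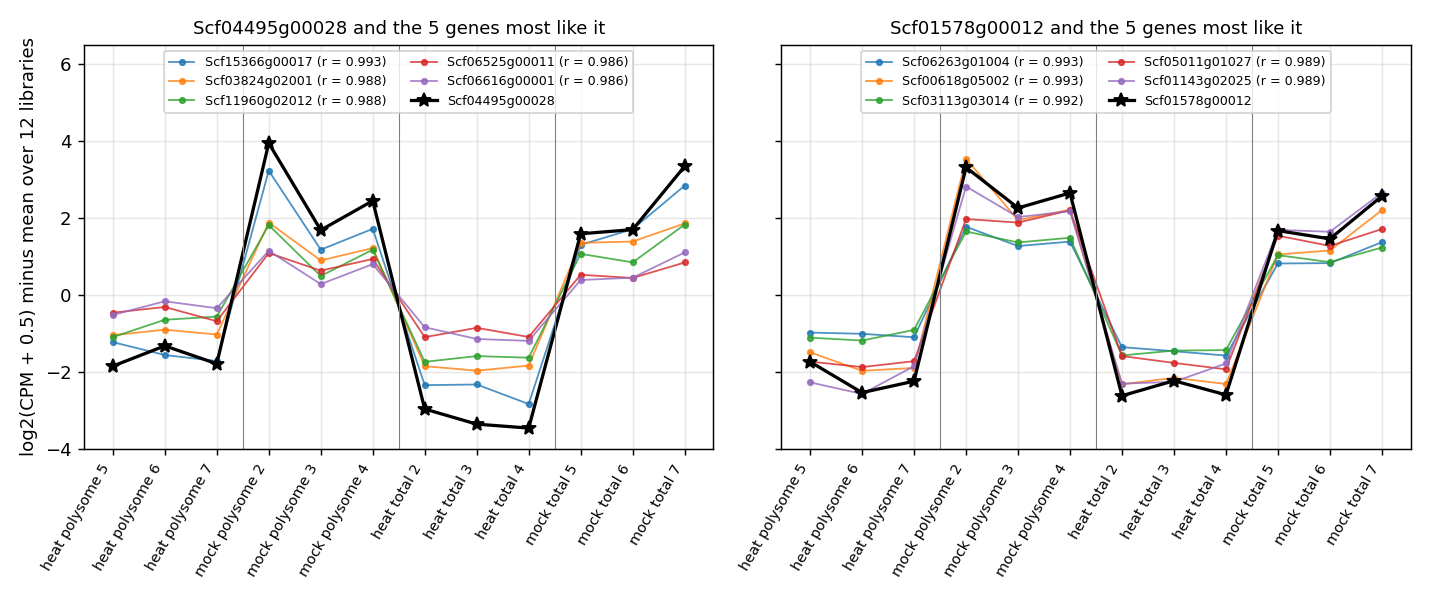
Log2(CPM + 0.5) minus its mean over the 12 libraries for Niben101Scf04495g00028.1 (left, black stars) and Niben101Scf01578g00012.1 (right, black stars) with the 5 genes most like each (coloured, Pearson's r in the legend), lines joining the values of 1 gene. Curves are low in heat and high in mock in both fractions, and most peak at mock polysome library 2 and mock total library 7.

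The genes of gibberellin metabolism and perception were then read from the same fit. Among 15 tested genes of synthesis and inactivation, 6 rose and 3 fell in polysome RNA (median 0.46), and 9 rose and 4 fell in total RNA (median 0.96). Among 20 tested genes of GID1, GID2 and DELLA, 6 rose and 9 fell in polysome RNA (median -0.46), and 2 rose and 10 fell in total RNA (median -0.50). Of all genes tested, 28.1% rose and 28% fell in polysome RNA, and 25.7% rose and 28.3% fell in total RNA, so the 4 of 15 that fell in total RNA and the 6 of 20 that rose in polysome RNA are near the share over all genes. Without mock total library 7, 0 of the 20 rose in total RNA. The counts by enzyme step come from a split by annotation text made after the values were seen, and no difference between steps was tested. Of 8 tested gibberellin 2-oxidases, which inactivate the hormone, 6 rose and 0 fell in polysome RNA, and 7 rose and 1 fell in total RNA. These 8 were the tested part of 11 matched genes. Some had enough counts only through heat libraries and could only rise, such as Niben101Scf04316g04001.1 (means of 0.12 CPM in mock polysome and 0.126 CPM in mock total RNA). Of 3 tested gibberellin 20-oxidases, which act in its synthesis, 2 fell and 0 rose in polysome RNA, and 2 fell and 1 rose in total RNA. Of 2 tested gibberellin 3-oxidases, which complete the synthesis, 0 passed in polysome RNA (median 0.64), and 1 rose and 0 fell in total RNA (median 0.80). Of 2 tested enzymes of kaurene and kaurenoic acid, its precursors, 1 fell and 0 rose in each fraction. At an unadjusted p under 0.05, 1 of the 2-oxidases fell and 0 of the 20-oxidases rose in polysome RNA, and DESeq2 called 0 of each. The 3-oxidases had 0 passing in polysome RNA and 0 falls in total RNA by either measure, and the precursor enzymes had 0 rises.

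By mean CPM over all libraries, which includes its high heat values, the most abundant gene of this metabolism was the 2-oxidase Niben101Scf04955g01002.1. It had 35.8, 39.4 and 40.6 CPM in heat polysome libraries, against 0.381, 1.53 and 1.46 CPM in mock polysome libraries, a log2 change of 5.08 ± 0.27 (adjusted p = 2.8e-10). In total RNA it had 22.8, 22.8 and 24.5 CPM in heat, against 0.571, 0.528 and 0.833 CPM in mock (5.17 ± 0.27, adjusted p = 3.1e-10). Another 2-oxidase, Niben101Scf04316g04001.1, reached 15.1 ± 1.64 CPM in heat polysome RNA and 13.9 ± 0.319 CPM in heat total RNA, while mock polysome and mock total RNA held 1 and 3 reads above the lowest count. The ratios of heat to mock reads were 486 in polysome RNA (95% counting interval 86.7 to 19249) and 223 in total RNA (76.1 to 1086). In the other direction, the 20-oxidase Niben101Scf02083g03005.1 had 0.731 ± 0.468 CPM in heat polysome RNA and 8.06 ± 4.96 CPM in mock polysome RNA (-3.51 ± 0.50, adjusted p = 2.1e-05). Its total RNA held 0.788 ± 0.145 CPM in heat and 5.67 ± 1.04 CPM in mock (-2.84 ± 0.44, adjusted p = 5.3e-05).

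Receptor genes moved both ways. Niben101Scf15156g01016.1, a GID1 receptor, had 7.26 ± 0.496 CPM in heat polysome RNA and 39.7 ± 6.45 CPM in mock polysome RNA (-2.45 ± 0.19, adjusted p = 2.9e-08), and 2.28 ± 0.505 CPM in heat total RNA and 16.3 ± 2.85 CPM in mock total RNA (-2.83 ± 0.20, adjusted p = 1.1e-08). Niben101Scf01626g04008.1, another GID1 gene, changed by -3.24 ± 0.37 in polysome RNA (adjusted p = 2.2e-06) and by -2.40 ± 0.33 in total RNA (adjusted p = 1.5e-05). By contrast, the GID1 gene Niben101Scf00100g00017.1 rose by 1.57 ± 0.35 in polysome RNA (adjusted p = 0.0013) and by 1.11 ± 0.36 in total RNA (adjusted p = 0.016, or 0.066 without mock total library 7). Over all 12 tested GID1 genes, 5 rose and 4 fell in polysome RNA, and 2 rose and 5 fell in total RNA. Over all genes tested, 28.1% rose and 28% fell in polysome RNA, and 25.7% rose and 28.3% fell in total RNA. The 4 of 12 that fell in polysome RNA are near that share, and the 2 of 12 that rose in total RNA are below it. Of 7 tested DELLA genes, 1 rose and 4 fell in polysome RNA, and 0 rose and 5 fell in total RNA, with 0 rises at an unadjusted p under 0.05 or with DESeq2. The most abundant of these, Niben101Scf04474g02003.1, changed by -1.16 ± 0.15 in polysome RNA (adjusted p = 5.6e-06) and by -1.02 ± 0.14 in total RNA (adjusted p = 1.7e-05). No gibberellin was measured here.

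**Figure D5:**
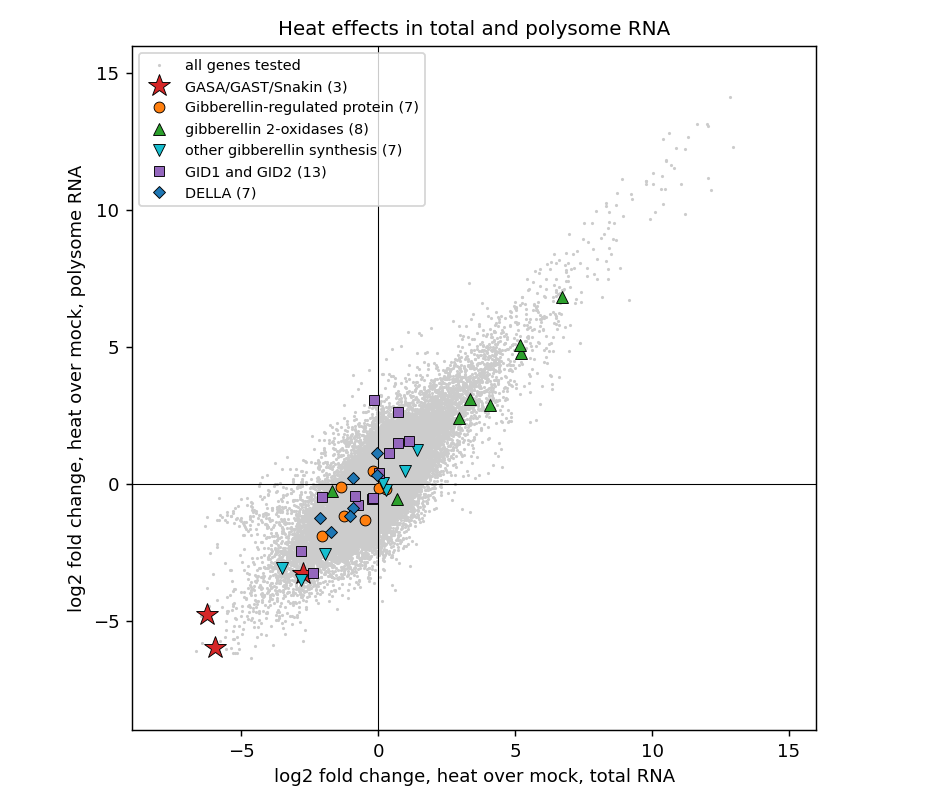
Log2 fold change of heat over mock in polysome RNA (vertical) against total RNA (horizontal) for all 34325 genes tested (grey) and for the genes of the GASA family and of gibberellin metabolism and perception (coloured, number of genes in the legend). The listed pair of GASA/GAST/Snakin genes lies at the lower left end of the cloud, and 6 of 8 gibberellin 2-oxidases lie above 2 on both axes.

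Defensins and thionins, other cysteine-rich secreted peptides, fell in most tested genes. Of 20 tested genes of defensins, thionins and hevein-like peptides, which act against microbes, 1 rose and 16 fell in polysome RNA (median -3.94), and 0 rose and 11 fell in total RNA (median -2.45), again with 0 rises at an unadjusted p under 0.05 or with DESeq2. Of the 28 genes matched, 10 were at the lowest count in all heat total libraries and 4 in all heat polysome libraries. In each mock group 0 were so in all libraries. Any tested gene with enough counts only through mock libraries could only fall. The most abundant, the thionin-like Niben101Scf05375g00003.1, had 84.0, 59.4 and 68.3 CPM in heat polysome libraries, against 4708, 540 and 5534 CPM in mock polysome libraries (-5.67 ± 0.59, adjusted p = 8.2e-07). Total RNA held 11.3, 9.50 and 9.07 CPM in heat, against 359, 396 and 419 CPM in mock (-5.30 ± 0.59, adjusted p = 1.7e-06). Mock polysome library 3 was the lowest of its group, as in the 3 GASA/GAST/Snakin genes, and mock polysome library 4 was the highest. The steepest falls above 1 CPM were those of 2 more thionin-like genes, Niben101Scf09993g00001.1 in polysome RNA (-5.68 ± 0.60, adjusted p = 8.8e-07) and Niben101Scf05375g00004.1 in total RNA (-5.59 ± 0.68, adjusted p = 4.5e-06). These 3 thionin-like genes may share reads, yet each counts as a separate fall. The 1 gene that rose was the defensin Niben101Scf01241g02001.1, at 0.50 ± 0.20 in polysome RNA (adjusted p = 0.041), a call lost in 7 of the 12 fits with 1 library left out. Of the 20 genes, 13 were higher in polysome than in total RNA in heat and 20 in mock, against 30.8% and 27% of all genes tested. Of 62 tested lipid-transfer proteins, small cysteine-rich carriers of lipids, 11 rose and 17 fell in polysome RNA (median -0.49), and 5 rose and 25 fell in total RNA (median -0.67). Of all genes tested, 28% fell in polysome and 28.3% in total RNA. With 1 library left out, the falls among lipid-transfer proteins ran from 11 to 25 in polysome RNA and from 14 to 29 in total RNA. They numbered 11 in polysome RNA without mock polysome library 2. In total RNA they numbered 14 without mock total library 7, 16 without heat total library 2 and 10 without mock total libraries 6 and 7, and the rises in polysome RNA numbered 7 without mock polysome library 3.

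Gene groups of growth were read against the shares over all genes tested, of which 28.1% rose and 28% fell in polysome RNA, and 25.7% rose and 28.3% fell in total RNA. Of 56 tested TCP and growth-regulating factors, 9 rose and 21 fell in polysome RNA (median -0.69), and 4 rose and 32 fell in total RNA (median -1.08). Among 32 expansins, which loosen cell walls, 8 rose and 14 fell in polysome RNA (median -0.72), and 10 rose and 18 fell in total RNA (median -1.43). Of 36 xyloglucan endotransglucosylases, which remodel cell walls, 21 rose and 5 fell in polysome RNA (median 1.03), and 17 rose and 8 fell in total RNA (median 0.71). The falls numbered 8 in polysome RNA without mock polysome library 3, 5 in total RNA without mock total library 7 or heat total library 2, and 4 without mock total libraries 6 and 7. Of 17 genes of the brassinosteroid pathway, 4 rose and 3 fell in polysome RNA, and 5 rose and 5 fell in total RNA, or 2 fell without mock total libraries 6 and 7. The brassinosteroid counts and the 8 of 32 expansins that rose in polysome RNA are near or below the shares over all genes.

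Markers of dividing cells and of cell types other than mesophyll were read beside the GASA genes and the shares over all genes tested. Those shares were 28.1% risen and 28% fallen in polysome RNA, and 25.7% risen and 28.3% fallen in total RNA. Counts near them include the 7 of 25 epidermis genes that rose in polysome RNA. The 8 of 24 floral regulators and the 21 of 85 mesophyll markers that fell in total RNA are also near. Sums below cover all matched genes, tested or not (52 cyclins, 30 epidermis, 38 floral and 9 vascular genes). Of 30 tested cyclins, 2 rose and 19 fell in each fraction (medians -1.75 in polysome and -1.70 in total RNA). The summed level of the cyclins was at most 113 CPM in heat polysome, 293 to 397 CPM in mock polysome, 61.4 to 66.6 CPM in heat total and 156 to 187 CPM in mock total libraries. Of 25 epidermis and cuticle genes, 7 rose and 11 fell in polysome RNA and 8 rose and 15 fell in total RNA, with sums of 348 to 395, 289 to 393, 254 to 272 and 197 to 231 CPM in the same order of groups. Of 24 floral and meristem regulators, 3 rose and 9 fell in polysome RNA and 3 rose and 8 fell in total RNA, with sums of 714 to 817, 279 to 371, 452 to 483 and 210 to 255 CPM. Of 9 vascular genes, 6 rose and 2 fell in polysome RNA and 6 rose and 1 fell in total RNA, with sums of 673 to 791, 786 to 1376, 306 to 321 and 162 to 275 CPM. Among the 85 leaf mesophyll markers, 45 rose and 5 fell in polysome RNA, and 7 rose and 21 fell in total RNA, with 13 rises in total RNA without mock polysome library 2, 12 without heat polysome library 5 and 3 without mock total libraries 6 and 7. Of the cyclins matched, 5 were at the lowest count in all heat polysome libraries, 3 in all heat total libraries, 1 in all mock polysome libraries and 0 in all mock total libraries. The summed level of the cyclins was lower in heat in both fractions, as were the GASA genes, 12 cyclins fell in total RNA without mock total libraries 6 and 7, and their part in the result was not tested.

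Genes with neighbouring identifiers on the same scaffold give the surroundings of the 3 genes. The listed pair was chosen for its steep fall, so its larger change beside the neighbours was fixed by that choice. Beside Niben101Scf01578g00012.1, the ERD15 dehydration-induced gene Niben101Scf01578g00008.1 rose by 1.66 ± 0.15 in polysome RNA (adjusted p = 1.1e-07) and by 0.50 ± 0.14 in total RNA (adjusted p = 0.008), while Niben101Scf01578g01006.1 on the other side did not pass. Beside Niben101Scf04495g00028.1, the F-box gene Niben101Scf04495g00027.1 fell by 2.30 ± 0.66 in polysome RNA (adjusted p = 0.0072) and by 1.87 ± 0.68 in total RNA (adjusted p = 0.03), at no more than 0.988 CPM in any group mean. On its other side, the hydrolase Niben101Scf04495g00029.1 had -0.63 ± 0.28 and -0.15 ± 0.25 in polysome and total RNA and did not pass. Beside Niben101Scf02854g11002.1, the gene of unknown function Niben101Scf02854g10010.1 fell by 1.00 ± 0.34 in polysome RNA (adjusted p = 0.022), and Niben101Scf02854g11006.1 did not pass.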

How the data were processed

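RNA sequencing covered 12 libraries, assigned to treatment and fraction by their titles. According to the submitters' processing notes, the tools were cutadapt, HISAT2, HTSeq 0.11.0 and DESeq. The notes give no roles, and no genome build was named in what was used. The deposited table holds raw counts, per the file headers, as whole numbers with a minimum of 1 in each library. It also holds signal values, counts normalized per library by the authors, per the file headers, which entered no test. Its log2 values are the authors' ratios between groups, per the file headers. Blanked lines (2) are not analysed here. Sequences, gene lengths and coordinates were not used.

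The quasi-likelihood test of edgeR 4.0.16 (R 4.3.3) was run on the counts after filterByExpr (minimum count 10) and TMM scaling, with a mean for each group and all 12 libraries in the fit. P-values were adjusted by Benjamini-Hochberg over all genes tested, and "rose", "fell" and "passed" mean an adjusted p under 0.05. For a single contrast, SE is the absolute log2 change over the root of F, and for the difference of both heat effects it is the root of the summed squares of their SEs. Intervals at 95% are normal ones from these SEs, counting intervals are exact binomial ones that cover counting error only. The test was checked on simulated counts.

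The genes, the 15 lists and the comparisons were chosen with earlier results of these data known, and the wording of 4 lists (defensins, lipid-transfer proteins, epidermis, cyclins) was narrowed after reading the annotation texts they matched. Genes named are all with the GASA/GAST/Snakin or Gibberellin-regulated protein text that could be tested, the 5 most like each listed gene, the nearest identifiers on their scaffolds and, from the gibberellin and defensin lists, the most abundant gene and, in each fraction, the largest rise and the largest fall among genes that passed and averaged above 1 CPM. Individual genes of the other lists are not named. Whether counting used strand or divided reads among near-identical copies was not stated, so values of single copies are uncertain. Alternatives tried were RLE scaling, no filter, at least 5 CPM on average, DESeq2 1.42.0, limma-voom (limma 3.58.1), only the libraries compared, counts less 1, leaving out each library or mock total libraries 6 and 7, the title number as a block and, added later, leaving out mock total library 7 with mock polysome library 2. Fits that left libraries out reran the filter, so counts from them can include genes not tested in the fit reported. Every pair of libraries differed beyond sampling noise.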

Additional observations from a re-analysis of the deposited data

Results flagged for a closer look

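Niben101Scf02427g02013.1, Gibberellin-regulated protein 7, fell by more in polysome than in total RNA: its heat effect was -1.33 in polysome RNA and -0.49 in total RNA, and the difference of -0.84 ± 0.26 passed the test of the difference itself (adjusted p = 0.032, edgeR's quasi-likelihood test). All 3 heat libraries were below all 3 mock libraries in both fractions. Over the 12 fits with 1 library left out, the difference ran from -1.05 to -0.64 with adjusted p-values of 0.0045 to 0.08.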

How the results depend on the processing

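The heat effects of the 3 GASA/GAST/Snakin genes were negative under every alternative run. The listed pair was chosen for this fall in the same libraries, so its sign was fixed by that choice. With 1 library left out, Niben101Scf04495g00028.1 ran from -6.51 to -5.42 in total and from -5.15 to -3.87 in polysome RNA, Niben101Scf01578g00012.1 from -6.57 to -5.63 and Niben101Scf02854g11002.1 from -3.54 to -2.77 in polysome RNA. Polysome over total RNA ran from 1.79 to 2.26 in heat and from -0.34 to 1.36 in mock for Niben101Scf04495g00028.1, from 0.50 to 1.27 in mock for Niben101Scf01578g00012.1 and from 1.01 to 1.73 in heat for Niben101Scf02854g11002.1. The difference of both heat effects ran from 0.65 to 2.32 for Niben101Scf04495g00028.1 and from -0.62 to 0.38 for Niben101Scf01578g00012.1, and 2171 to 3839 genes were called higher in it, against 3502 with all libraries. Calls were lost with limma-voom for polysome over total RNA in heat (2.02 for Niben101Scf04495g00028.1 and 1.42 for Niben101Scf02854g11002.1) and with the compared libraries alone in mock (0.84 for Niben101Scf01578g00012.1). The cause was not tested. Without mock total libraries 6 and 7, polysome over total RNA in mock was 1.41 for Niben101Scf04495g00028.1, 1.15 for Niben101Scf01578g00012.1 and 2.17 for Niben101Scf02854g11002.1. The difference of both heat effects was then -0.37 for Niben101Scf01578g00012.1 and -0.86 for Niben101Scf02854g11002.1. In the same fit Niben101Scf04495g00028.1 fell by 5.34 in total RNA. Without mock total library 7 and mock polysome library 2, left out after their high values had been seen, it had -5.42 in total and -3.87 in polysome RNA, -4.64 on average and a difference of 1.55 that passed (adjusted p = 0.0077), and Niben101Scf02854g11002.1 had -2.77 in polysome RNA.

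Among Gibberellin-regulated protein genes, signs changed only for values that had not passed. In total RNA, Niben101Scf00146g00008.1 had 0.66 without mock total libraries 6 and 7, 0.21 without mock total library 7 and mock polysome library 2, and -0.46 to 0.20 with 1 library left out. Niben101Scf01563g00013.1 had -0.01 with limma-voom and -0.20 to 0.21 with 1 library left out. In polysome RNA without mock total library 7 and mock polysome library 2, it had 0.07 and Niben101Scf01799g00001.1 had 0.28, and with 1 library left out they ran from -0.31 to 0.07 and from -0.49 to 0.28. Niben101Scf02253g14010.1 ran from -1.45 to 0.79 there, and from -0.46 to 0.92 for polysome over total RNA in mock. The difference of both heat effects without mock total libraries 6 and 7 was -0.16 for Niben101Scf00146g00008.1, -0.05 for Niben101Scf02253g14010.1, -0.62 for Niben101Scf03628g01020.1 and -0.33 for Niben101Scf09092g02011.1. The last had -0.01 with DESeq2, and Niben101Scf01799g00001.1 had 0.01 without mock total library 7 and mock polysome library 2. With 1 library left out it ran from -0.36 to 0.05 for Niben101Scf01563g00013.1, -0.12 to 2.12 for Niben101Scf02253g14010.1, -0.19 to 1.13 for Niben101Scf03628g01020.1 and -0.12 to 0.45 for Niben101Scf09092g02011.1.

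Over all genes, a mean of at least 5 CPM, which leaves fewer genes to test, gave 5402 higher and 6097 lower in total RNA (8832 and 9728 in the fit reported), 5836 and 6112 in polysome RNA (9632 and 9605), 6003 and 5911 for polysome over total RNA in mock (9275 and 9327), 7025 and 6250 in heat (10560 and 9743), and 6196 and 7006 for the mean heat effect (10744 and 11815). Without mock total libraries 6 and 7, 6262 genes were lower in total RNA, and the difference had 1374 higher and 1060 lower.

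Heat and mock libraries of a fraction share no title number, so a replicate block could be fitted only to the mean heat effect. It gave -5.32, -5.95 and -2.97 for Niben101Scf04495g00028.1, Niben101Scf01578g00012.1 and Niben101Scf02854g11002.1, against -5.51, -5.99 and -3.01 without it. Deviations of libraries with the same number correlated at -0.06 to 0.00, and those with different numbers at -0.03 to 0.06. Libraries that share a number differ in both treatment and fraction, so these values cannot show whether the numbers pair the samples. Depth limits Niben101Scf01578g00012.1, with 2 to 6 counts in each heat library. Spread between mock libraries limits Niben101Scf04495g00028.1.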
